A study of Mus musculus with 12 samples.

Results

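Cones carry daylight and colour vision, and the genes described here encode the proteins that turn light into an electrical signal in them. The set was chosen by name, as the cone opsin, transducin, phosphodiesterase, channel, exchanger and arrestin genes. No measured value entered the rule, but earlier results of these data were known when the set was chosen. The set holds 10 of the 55487 genes in the deposited gene table. All 10 passed the filter on low counts. RNA came from whole retina of 5xFAD mice (strain label Tg6799) and WT mice (C57BL/6J) aged 1 and 6 months, as 4 groups of 3 libraries. 5xFAD is a transgenic Alzheimer's disease model, in which the Thy1 promoter drives mutant human APP and presenilin in neurons, as background knowledge of the line gives it. The WT mice carry no allele or treatment that the labels name, and the labels do not say whether the 5xFAD mice share their background strain or whether each library came from a separate animal. The p-values therefore measure the spread between these libraries, which may be partly technical.

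In a cone, light changes the shape of an opsin, which activates the G protein transducin. Transducin takes the inhibitory subunit off the cone phosphodiesterase, cyclic GMP is broken down, and the cyclic nucleotide-gated channels of the outer segment close. Arrestin then quenches the opsin, and a sodium/calcium, potassium exchanger removes calcium. Rods use a parallel set of paralogues, and most cones of the mouse make both the short-wave and the middle-wave opsin, in proportions that change across the retina.

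The start regions of 4 of the genes are printed because, in the fit without a length correction, Opn1sw, the short-wave opsin gene, did not pass the test between the genotypes at either age, whereas Opn1mw, Arr3 and Gnat2 did at 1 or both ages. With the dependence on transcript length and GC content taken out, Opn1sw passed at 1 month, and Opn1mw passed at 6 months but not at 1 month. The sequences are RefSeq's, on GRCm38.p6, and run 5′ to 3′ from 250 bases before the annotated start to 50 bases after it, on the gene's own strand. Capitals mark matches on either strand to TAATCC and TAATCT, words that the photoreceptor homeodomain proteins of the CRX and OTX family are known to bind, and to AGGTCA, the core word that many nuclear receptors bind. The word TAATCT was added after the Arr3 sequence had been read.
Opn1sw (chr6:29380464-29380763, minus strand): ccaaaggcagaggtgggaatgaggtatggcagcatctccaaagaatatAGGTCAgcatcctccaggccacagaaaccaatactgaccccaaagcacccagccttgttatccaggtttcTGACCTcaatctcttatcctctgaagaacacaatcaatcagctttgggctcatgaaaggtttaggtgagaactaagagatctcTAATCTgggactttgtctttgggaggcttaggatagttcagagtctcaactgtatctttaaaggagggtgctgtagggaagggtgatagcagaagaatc
Opn1mw (chrX:74127216-74127515, plus strand): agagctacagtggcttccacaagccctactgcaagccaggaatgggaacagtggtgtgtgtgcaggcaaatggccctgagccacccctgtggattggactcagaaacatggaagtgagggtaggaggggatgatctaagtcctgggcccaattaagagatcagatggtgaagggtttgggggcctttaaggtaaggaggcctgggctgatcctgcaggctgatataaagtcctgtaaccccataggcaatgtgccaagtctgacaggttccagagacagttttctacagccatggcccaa
Arr3 (chrX:100605247-100605546, plus strand): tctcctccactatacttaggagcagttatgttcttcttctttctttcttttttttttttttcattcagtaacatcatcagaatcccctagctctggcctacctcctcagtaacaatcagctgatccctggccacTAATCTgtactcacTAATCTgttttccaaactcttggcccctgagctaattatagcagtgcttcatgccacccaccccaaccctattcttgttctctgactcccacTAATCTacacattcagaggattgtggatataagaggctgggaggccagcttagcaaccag
Gnat2 (chr3:108092816-108093115, plus strand): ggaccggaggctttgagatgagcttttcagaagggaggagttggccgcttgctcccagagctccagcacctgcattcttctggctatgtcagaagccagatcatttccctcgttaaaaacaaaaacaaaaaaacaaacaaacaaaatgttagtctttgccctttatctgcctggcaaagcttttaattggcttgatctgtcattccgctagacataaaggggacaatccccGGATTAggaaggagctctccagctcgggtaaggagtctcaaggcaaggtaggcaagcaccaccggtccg
No match overlapped another. The Arr3 window held 3 matches to TAATCT, the Opn1sw window held 1 match to TAATCT and 2 to AGGTCA, the Gnat2 window held 1 match to TAATCC, and the Opn1mw window held none of the 3 words. Among all 32851 windows of this length, 7.06% held TAATCC, 8.19% held TAATCT and 16.3% held AGGTCA. Windows for Pde6h, Cnga3 and Slc24a2 were also in the table and held no match, while Gnb3, Gngt2 and Pde6c were not matched. These are descriptions of letters and not of binding.

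Of the 10 genes, Arr3 (chrX:100605497-100618493), which encodes cone arrestin, had the smallest adjusted p at 1 month. It fell at 1 month and was higher at 6 months in 5xFAD retina. Positions of genes here and below are those of GENCODE M21 on GRCm38. Arr3 had 256, 229 and 192 CPM (counts scaled to 1000000 per library, after TMM scaling) in 5xFAD libraries at 1 month, against 484, 464 and 365 CPM in WT libraries of that age. The lowest WT library lay well above the highest 5xFAD library. The log2 fold change, 5xFAD over WT, was -0.96 ± 0.11 (SE, n = 3 per group), which is 0.515 of the WT level (edgeR quasi-likelihood test, adjusted p = 6.41e-06). At 6 months Arr3 had 451, 532 and 499 CPM in 5xFAD libraries, against 361, 310 and 367 CPM in WT libraries, again without overlap but in the other direction. The log2 fold change there was 0.51 ± 0.11, with an adjusted p of 0.00728 in edgeR, and 0.0866 without WT replicate 2 of that age.

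**Figure D1:**
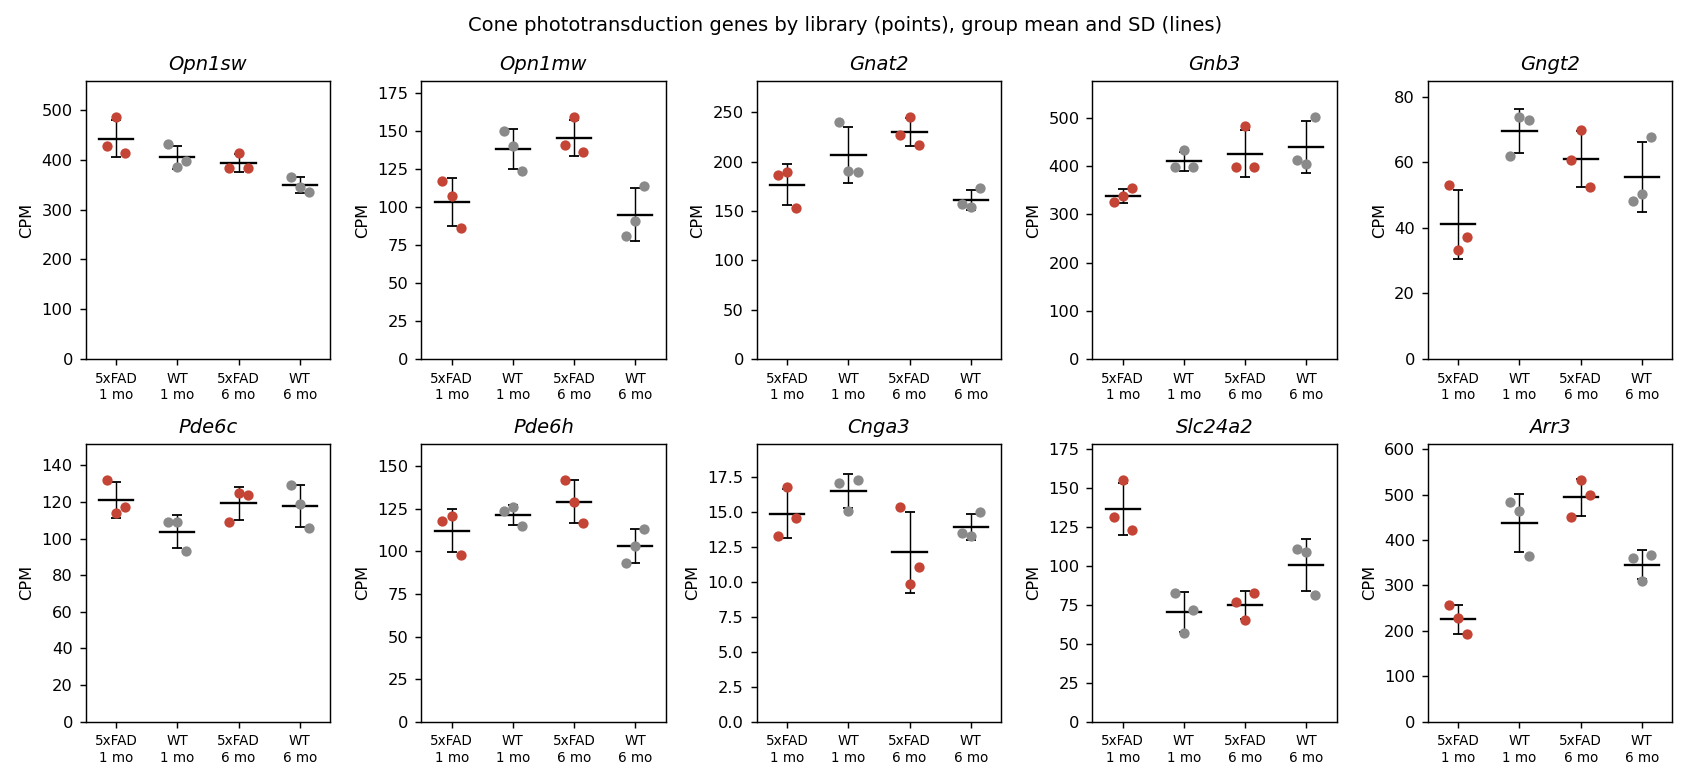
Level of each cone phototransduction gene in CPM (vertical axes, each from 0) in the 3 libraries of each group (red points, 5xFAD; grey points, WT), with the group mean and SD as black lines. For Arr3 and Opn1mw the 5xFAD libraries lie below the WT libraries at 1 month and above them at 6 months, and for Slc24a2 the 5xFAD libraries lie above at 1 month.

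Of the 2 cone opsins, Opn1mw was called at both ages and Opn1sw at neither in the fit without a length correction. Opn1sw (chr6:29376671-29388468) encodes the short-wave opsin, which in the mouse absorbs ultraviolet light. It had 428, 485 and 414 CPM in 5xFAD libraries at 1 month, against 431, 385 and 398 CPM in WT libraries. In the 6-month retinas it had 384, 414 and 383 CPM in 5xFAD libraries, against 366, 345 and 336 CPM in WT libraries. The groups overlapped at 1 month, and at 6 months every 5xFAD library was above every WT library by a small margin. Neither difference passed the test, with log2 fold changes of 0.13 ± 0.08 and 0.17 ± 0.08 and adjusted p of 0.315 and 0.247 in edgeR. Opn1sw overlaps Calu on the opposite strand, and the library kit does not keep strand, so reads of these genes cannot be told apart where they overlap.

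Opn1mw (chrX:74127464-74150760), the middle-wave opsin gene, followed the direction of Arr3. It had 117, 107 and 86.1 CPM in 5xFAD libraries at 1 month, against 150, 140 and 124 CPM in WT libraries. At 6 months the values were 141, 159 and 136 CPM in 5xFAD libraries, against 80.6, 90.5 and 114 CPM in WT libraries. Both sets were free of overlap, lower in 5xFAD at 1 month and higher in 5xFAD at 6 months. The log2 fold changes were -0.42 ± 0.13 at 1 month and 0.61 ± 0.13 at 6 months, with adjusted p of 0.021 and 0.00483 in edgeR. The call at 1 month was lost without WT replicate 1 or 2 or without 5xFAD replicate 2 or 3 (adjusted p = 0.107, 0.0665, 0.0546 and 0.139), and that at 6 months without WT replicate 1 (0.0584). Opn1mw overlaps the predicted gene Gm6758 on the opposite strand, so its count is uncertain in the same way. Arr3 and Opn1mw are X-linked. Xist, made from the inactive X, was at no more than 0.942 CPM in any of the 12 libraries. The Y-linked Ddx3y was present in all of them and separated the genotypes, at 73 to 78.7 CPM in 5xFAD libraries and 51.3 to 62.1 CPM in WT libraries at 1 month, and at 72.1 to 77.9 CPM in 5xFAD libraries and 48.7 to 64.2 CPM in WT libraries at 6 months. The part of this difference in the results of the X-linked genes was not tested.

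The 3 cone transducin subunits are given next. Gnat2 (chr3:108092789-108101432), the alpha subunit that carries the signal to the phosphodiesterase, had 187, 190 and 153 CPM in 5xFAD libraries at 1 month, against 240, 191 and 190 CPM in WT libraries. The 5xFAD values lay below the WT values by a narrow gap, and the difference did not pass the test (log2 fold change -0.23 ± 0.11, edgeR adjusted p = 0.131). At 6 months Gnat2 had 227, 245 and 217 CPM in 5xFAD libraries, against 157, 154 and 173 CPM in WT libraries. Here every 5xFAD library was clearly above every WT library, with a log2 fold change of 0.51 ± 0.11 and an edgeR adjusted p of 0.00523, or 0.0606 without WT replicate 2.

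Gnb3 (chr6:124834240-124840275), the cone beta subunit, which ON bipolar cells also make, had 325, 337 and 354 CPM in 5xFAD libraries at 1 month, against 399, 433 and 399 CPM in WT libraries. The 6-month values were 397, 482 and 398 CPM in 5xFAD libraries, against 412, 405 and 501 CPM in WT libraries. The groups were apart at 1 month and overlapped at 6 months. The log2 fold change was -0.28 ± 0.10 at 1 month, just past the threshold with an edgeR adjusted p of 0.0446, and -0.05 ± 0.10 at 6 months, with an adjusted p of 0.845. The call at 1 month was made under 6 of 22 alternative settings and was lost without any 1 library of that age (adjusted p = 0.0676 to 0.166).

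Gngt2 (chr11:95837216-95845734), the cone gamma subunit, had 53.0, 33.1 and 37.1 CPM in 5xFAD libraries at 1 month, against 61.8, 73.7 and 72.9 CPM in WT libraries. The older retinas had 60.7, 69.7 and 52.5 CPM in 5xFAD libraries, against 48.2, 50.3 and 67.7 CPM in WT libraries. It was lower in all 5xFAD libraries at 1 month, and the groups overlapped at 6 months. The log2 fold change was -0.76 ± 0.16 at 1 month (edgeR adjusted p = 0.00203) and 0.14 ± 0.16 at 6 months (adjusted p = 0.696). Gngt2 overlaps Abi3 on the opposite strand.

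In the fit without a length correction, neither subunit of the cone phosphodiesterase passed the test between genotypes. Pde6c (chr19:38132781-38183958), the catalytic subunit, had 132, 114 and 117 CPM in 5xFAD libraries at 1 month, against 109, 109 and 93.2 CPM in WT libraries. In the older retinas it had 109, 125 and 124 CPM in 5xFAD libraries, against 129, 119 and 106 CPM in WT libraries. The 5xFAD libraries were the higher ones at 1 month, by a small margin, and the groups overlapped at 6 months. The log2 fold changes were 0.23 ± 0.10 and 0.01 ± 0.10, with edgeR adjusted p of 0.137 and 0.961.

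Pde6h (chr6:136923832-136968865), the inhibitory subunit, had 118, 121 and 97.9 CPM in 5xFAD libraries at 1 month, against 124, 126 and 115 CPM in WT libraries. At 6 months it had 142, 129 and 117 CPM in 5xFAD libraries, against 93.4, 103 and 113 CPM in WT libraries. The groups overlapped at 1 month, and at 6 months the lowest 5xFAD library was just above the highest WT library. The log2 fold changes were -0.11 ± 0.11 and 0.33 ± 0.11, with edgeR adjusted p of 0.501 and 0.0687. The difference at 6 months passed under 4 of 22 alternative settings. With the dependence on transcript length and GC content taken out, it was 0.50 ± 0.12 (edgeR adjusted p = 0.00943). Pde6h overlaps Arhgdib on the opposite strand.

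Of the ion transport genes, Cnga3 (chr1:37214434-37263384), the pore subunit of the cone channel, was the least abundant of the 10. It had 13.3, 16.8 and 14.6 CPM in 5xFAD libraries at 1 month, against 17.1, 15.1 and 17.3 CPM in WT libraries. The 6-month values were 15.4, 9.86 and 11.1 CPM in 5xFAD libraries, against 13.5, 13.3 and 15 CPM in WT libraries. The groups overlapped at both ages, with log2 fold changes of -0.15 ± 0.20 and -0.20 ± 0.20 and edgeR adjusted p of 0.667 and 0.636.

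Slc24a2 (chr4:86983124-87230477), the cone sodium/calcium, potassium exchanger, which neurons elsewhere also make, was the member that rose at 1 month. It had 131, 155 and 123 CPM in 5xFAD libraries at 1 month, against 82.4, 57.1 and 71.8 CPM in WT libraries. At 6 months it had 76.5, 65.0 and 82.6 CPM in 5xFAD libraries, against 111, 109 and 81.5 CPM in WT libraries. All 5xFAD libraries were higher at 1 month, and at 6 months 1 5xFAD library overlapped the lowest WT library. The log2 fold change was 0.95 ± 0.14 at 1 month, a 1.93-fold rise with an edgeR adjusted p of 6.85e-05, and -0.43 ± 0.14 at 6 months, with an adjusted p of 0.0654. The difference at 6 months passed without WT replicate 3 or 5xFAD replicate 3 of that age (edgeR adjusted p = 0.0101 and 0.0347). With the dependence on transcript length and GC content taken out, that difference was -0.11 ± 0.10 (edgeR adjusted p = 0.526).

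**Figure D2:**
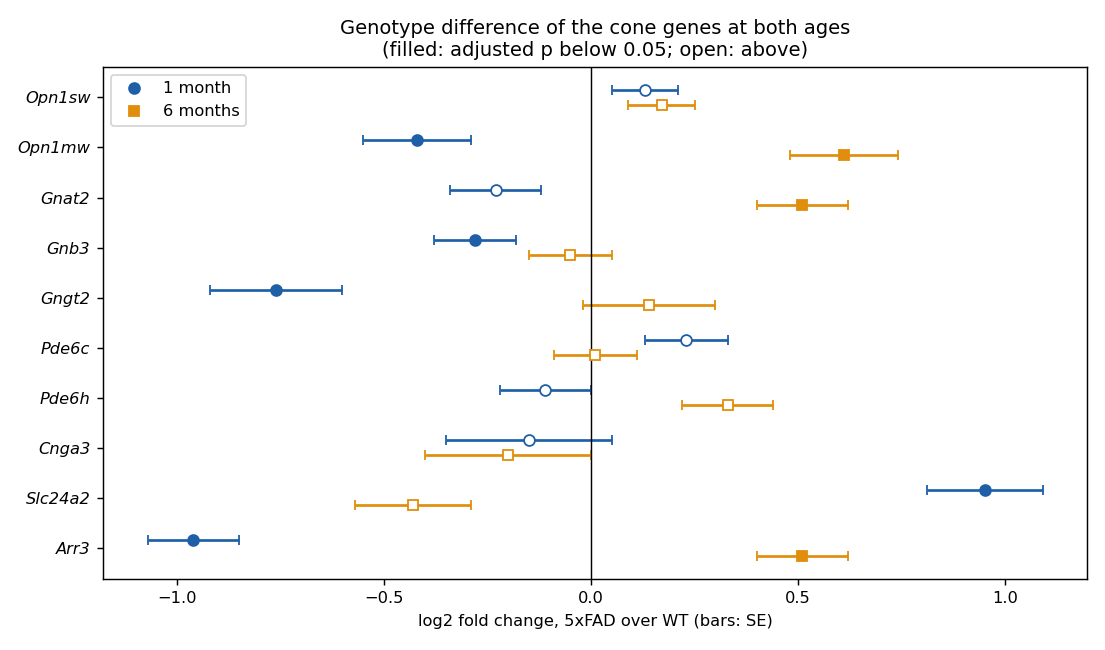
Log2 fold change, 5xFAD over WT (horizontal axis), of each cone gene at 1 month (blue circles) and 6 months (orange squares), with SE as bars and filled symbols for an adjusted p below 0.05. Arr3 lies at -0.96 at 1 month and 0.51 at 6 months, and Slc24a2 lies at 0.95 and -0.43.

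Counted together, 5 of the 10 genes were called at 1 month, 4 lower and 1 higher in 5xFAD, where 19.6% of all tested genes were called (8.91% lower and 10.7% higher). At 6 months 3 of 10 were called, all higher in 5xFAD, where 6.38% of all genes were called and 2.48% were higher. The median log2 fold change of the 10 was -0.19 at 1 month, beside -0.04 over all tested genes, and 0.16 at 6 months, beside 0.00. In RNA of a whole tissue, fewer or more cones and less or more RNA per cone cannot be told apart. In an alternative fit with the dependence on transcript length and GC content taken out, the calls over all 16233 genes were 751 higher and 1115 lower at 1 month, against 1732 higher and 1446 lower without that step, and 1170 higher and 381 lower at 6 months, against 403 higher and 632 lower. The comparison of 6 months with 1 month gave 3 called members in WT, 1 higher and 2 lower, where 10.5% of all genes were called (6.01% higher and 4.49% lower). It gave 6 in 5xFAD, 5 higher and 1 lower, where 23.2% were called (10.8% higher and 12.4% lower).

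In the fit without a length correction, 3 genes were called for age in both genotypes, in opposite directions. They were Opn1mw, Gnat2 and Slc24a2, and none of them kept both calls once the dependence on length and GC content was taken out. In 5xFAD retina Arr3, Gngt2, Opn1mw, Gnat2 and Gnb3 were higher at 6 months than at 1 month, and Slc24a2 was lower. The log2 fold change of Arr3 was 1.13 ± 0.11, a 2.19-fold rise (edgeR adjusted p = 9.3e-07), and that of Slc24a2 was -0.87 ± 0.14 (adjusted p = 0.00012). In WT retina Slc24a2 was higher at 6 months (0.52 ± 0.14, edgeR adjusted p = 0.0196), while Opn1mw and Gnat2 were lower (-0.54 ± 0.13 and -0.36 ± 0.11, adjusted p = 0.00738 and 0.0289). Each of these 3 WT calls was lost without WT replicate 1 or 2 at 6 months (edgeR adjusted p = 0.0603 to 0.205), that of Gnat2 also without WT replicate 1 at 1 month (0.261) or 5xFAD replicate 1 at 6 months (0.0509), and that of Slc24a2 also without WT replicate 2 at 1 month (0.126). In 5xFAD the calls of Opn1mw, Gnat2, Gnb3 and Gngt2 were each lost without at least 1 library (adjusted p = 0.056 to 0.116), and those of Arr3 and Slc24a2 were not. Opn1sw, Pde6c, Pde6h and Cnga3 were called in neither genotype, and Opn1sw had values of -0.21 ± 0.08 in WT and -0.17 ± 0.08 in 5xFAD. These age comparisons use the same libraries as the genotype comparisons, so the results are not separate evidence.

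With the length and GC dependence taken out, 4 of the 5 rises with age in 5xFAD were no longer called. They were 0.22 ± 0.15 for Gngt2, 0.27 ± 0.11 for Opn1mw, 0.16 ± 0.07 for Gnb3 and 0.26 ± 0.10 for Gnat2 (edgeR adjusted p = 0.361, 0.113, 0.116 and 0.0636). Arr3 stayed at 0.96 ± 0.10 and Slc24a2 at -0.33 ± 0.10 (adjusted p = 1.04e-06 and 0.0212). Pde6h, at 0.46 ± 0.12, and Opn1sw, at -0.26 ± 0.08, were called under this setting (edgeR adjusted p = 0.0111 and 0.0267). In WT retina Opn1mw (-0.50 ± 0.11), Gnat2 (-0.39 ± 0.10), Pde6h (-0.38 ± 0.12) and Arr3 (-0.33 ± 0.10) were called as lower at 6 months, and Slc24a2 was not called (0.20 ± 0.10, edgeR adjusted p = 0.191). Over all genes this setting gave 744 higher and 1259 lower in WT, against 976 and 729 without it, and 1731 higher and 822 lower in 5xFAD, against 1760 and 2012.

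The interaction of genotype and age tests whether the genotype difference at 6 months differed from that at 1 month. It was called for 6 of the 10 genes, 5 positive and 1 negative, where 25% of all tested genes were called (11.7% positive and 13.3% negative). With the length and GC dependence taken out, the 1892 positive and 2162 negative calls over all genes became 2175 positive and 1051 negative. Arr3 had the largest value, 1.47 ± 0.16 on the log2 scale (edgeR adjusted p = 1.01e-06), followed in size by Slc24a2 at -1.38 ± 0.20 (adjusted p = 2.37e-05). Opn1mw had 1.03 ± 0.18, Gngt2 0.89 ± 0.23, Gnat2 0.74 ± 0.15 and Pde6h 0.44 ± 0.15, with edgeR adjusted p between 0.000166 and 0.0353. The call of Pde6h was made under 11 of 21 alternative settings. For Opn1sw the interaction was 0.05 ± 0.12 (adjusted p = 0.83).

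Transcript length moved with the genotype difference across the whole transcriptome, and the cone genes span much of its range. Their count-weighted mean transcript lengths ran from 586 nt for Gngt2 to 10439 nt for Slc24a2, around a median of 2746 nt over all tested genes. At 1 month the median log2 fold change, 5xFAD over WT, was -0.49 in the shortest decile of tested genes and 0.43 in the longest decile. At 6 months it was 0.20 in the shortest decile and -0.23 in the longest. Gngt2, in the shortest decile, and Slc24a2, in the longest, thus had the sign of their length class at 1 month.

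Each member was then set against genes of like length, by the middle 50% of its length class. By definition this band leaves the other 50% of genes outside, so lying outside it does not by itself mark a member. At 1 month Opn1mw, Gnat2, Gnb3 and Cnga3 lay within the middle 50% of their length class. Arr3, Gngt2 and Pde6h lay below it and Opn1sw, Pde6c and Slc24a2 above it. The class of Arr3 had a median of -0.34 and a lower quartile of -0.55, against -0.96 for Arr3 itself. At 6 months 4 members lay above the middle 50%, namely Opn1mw, Arr3, Gnat2 and Pde6h, and none lay below.

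**Figure D3:**
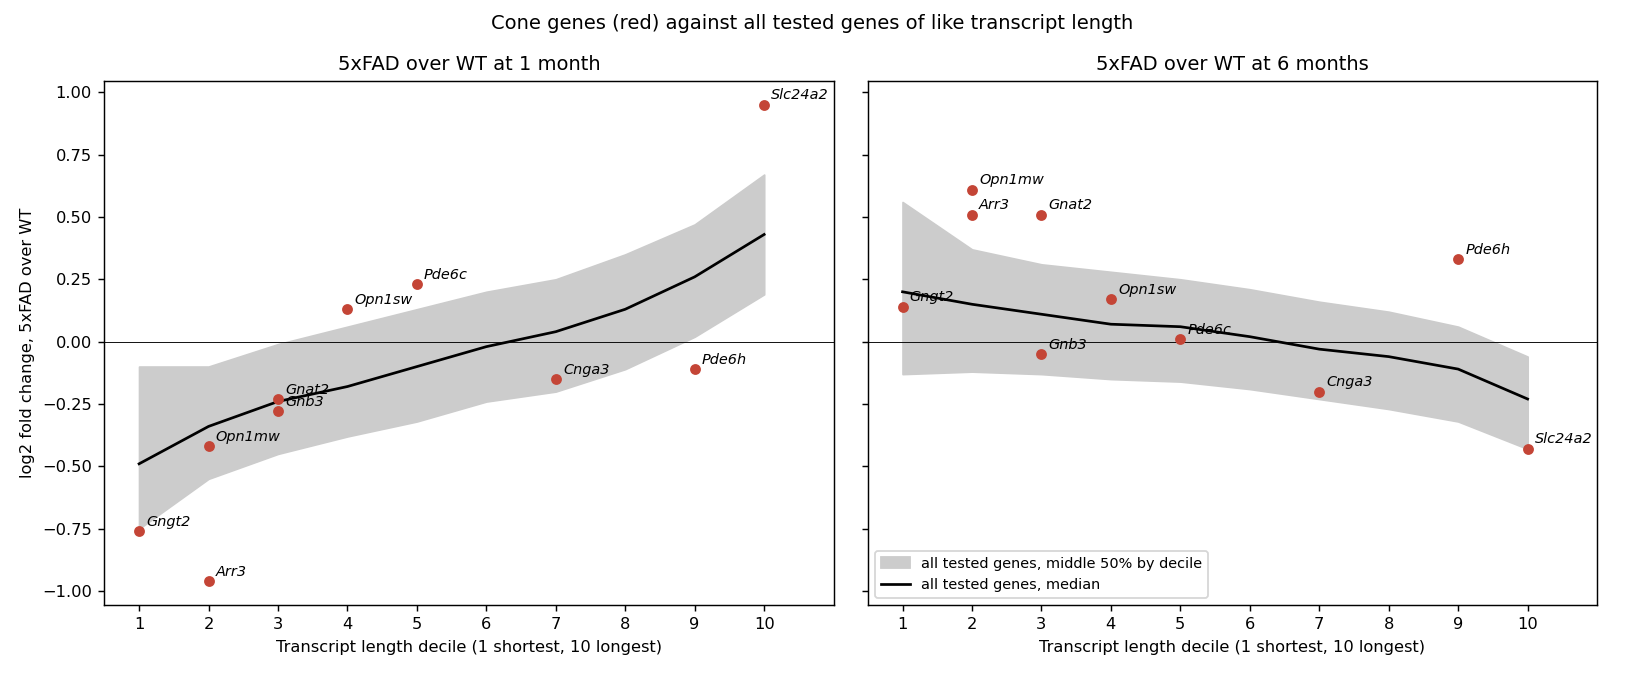
Log2 fold change, 5xFAD over WT (vertical axis), against the decile of transcript length (horizontal axis) at 1 month (left) and 6 months (right): black line, median of all tested genes; grey band, their middle 50%; red points, the cone genes. Arr3 and Slc24a2 lie outside the band at 1 month, and Arr3, Opn1mw, Gnat2 and Pde6h lie above it at 6 months.

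When the dependence of each library on transcript length and GC content was taken out before the edgeR fit, Arr3 was still called in both genotype comparisons. Its log2 fold change was then -0.74 ± 0.10 at 1 month (adjusted p = 2.74e-05) and 0.55 ± 0.10 at 6 months (adjusted p = 0.000972). Slc24a2 kept a smaller call at 1 month, 0.42 ± 0.10 (adjusted p = 0.00528). Opn1mw, Gnb3 and Gngt2 had -0.14 ± 0.11, -0.02 ± 0.07 and -0.38 ± 0.15 at 1 month and were no longer called (adjusted p = 0.483, 0.908 and 0.115). Opn1sw, not called without this step, had 0.25 ± 0.08 (adjusted p = 0.0378).

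At 6 months the same step left Opn1mw at 0.62 ± 0.11 and Gnat2 at 0.56 ± 0.10 (edgeR adjusted p = 0.000972 and 0.000545), and Pde6h passed at 0.50 ± 0.12 (adjusted p = 0.00943). The interaction stayed called for Arr3 (1.29 ± 0.14), Opn1mw (0.76 ± 0.16), Gnat2 (0.65 ± 0.14), Pde6h (0.84 ± 0.17) and Slc24a2 (-0.53 ± 0.14), and was lost for Gngt2 (0.35 ± 0.21, edgeR adjusted p = 0.273). The calls at 6 months also rest on 2 5xFAD libraries rich in ribosomal RNA. Without these and the WT library at 1 month that was richest in it, none of the 10 was called at 6 months. Their values stayed near the first ones, 0.52 for Opn1mw, 0.52 for Arr3 and 0.42 for Gnat2 (edgeR adjusted p = 0.198, 0.121 and 0.129). The lone 5xFAD library left was assumed to vary like the other groups. In the same fit the interaction stayed called for Arr3 (1.44 ± 0.20), Opn1mw, Gnat2 and Slc24a2, and was lost for Gngt2 and Pde6h (edgeR adjusted p = 0.19 and 0.334).

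Per length, the order of the members was nearly fixed but for its top. TPM (transcripts scaled to 1000000 per library, computed here from the transcript counts and annotated lengths) was highest for Opn1sw in 5xFAD retina at 1 month, 600 ± 39.3 (SD, n = 3), followed by Gnb3 at 496 ± 21.2 and Arr3 at 411 ± 62.5. In WT retina at 1 month Arr3 led with 671 ± 87.9 TPM, above Gnb3 at 515 ± 9.06 and Opn1sw at 472 ± 57.2. At 6 months Arr3, Gnb3 and Opn1sw were again the leading 3 in both genotypes, with Arr3 at 718 ± 83.0 TPM in 5xFAD retina and 559 ± 42.7 TPM in WT retina. Gnat2, Opn1mw and Gngt2 came next in every group, between 172 and 297 TPM on average, and libraries of neighbours in this order overlapped. At the top, Gnb3 and Opn1sw overlapped in WT retina at 1 month and in 5xFAD retina at 6 months, as did Gnb3 and Arr3 in WT retina at 6 months. Pde6h, Pde6c, Slc24a2 and Cnga3 followed in that order in all 4 groups, and Cnga3 averaged 7.97 to 11.6 TPM.

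The balance of the 2 opsins was also compared. Opn1sw made up 70.3%, 72.8% and 74.6% of cone opsin RNA, in TPM, in 5xFAD libraries at 1 month, against 63.9%, 62.5% and 66.8% in WT libraries. The 6-month shares were 64.5%, 61.8% and 63.6% in 5xFAD libraries, against 73.5%, 70.8% and 64.8% in WT libraries. Neither age showed overlap, and the direction was opposite at the 2 ages. The means differed by 8.18 percentage points at 1 month and by -6.41 points at 6 months, each with p = 0.1 in an exact two-sided permutation test, the smallest value that 3 against 3 libraries allow. Adjusted over the 60 comparisons of this kind, both were 0.207, so neither can pass.

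Across the 4 groups, the mean transcript length of a library moved with this share. It was 4220 to 4250 nt in 5xFAD libraries at 1 month, 3554 to 3790 nt in WT libraries at 1 month, 3615 to 3720 nt in 5xFAD libraries at 6 months, and 4019, 4022 and 3692 nt in WT libraries at 6 months. In WT retina at 6 months and in both genotypes at 1 month, the library with the shortest mean also had the lowest Opn1sw share. In 5xFAD retina at 6 months the library with the shortest mean, 3615 nt, had the highest share, 64.5%. Opn1mw transcripts averaged 1167 nt and Opn1sw transcripts 1980 nt, and the part of length in the share was not tested.

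**Figure D4:**
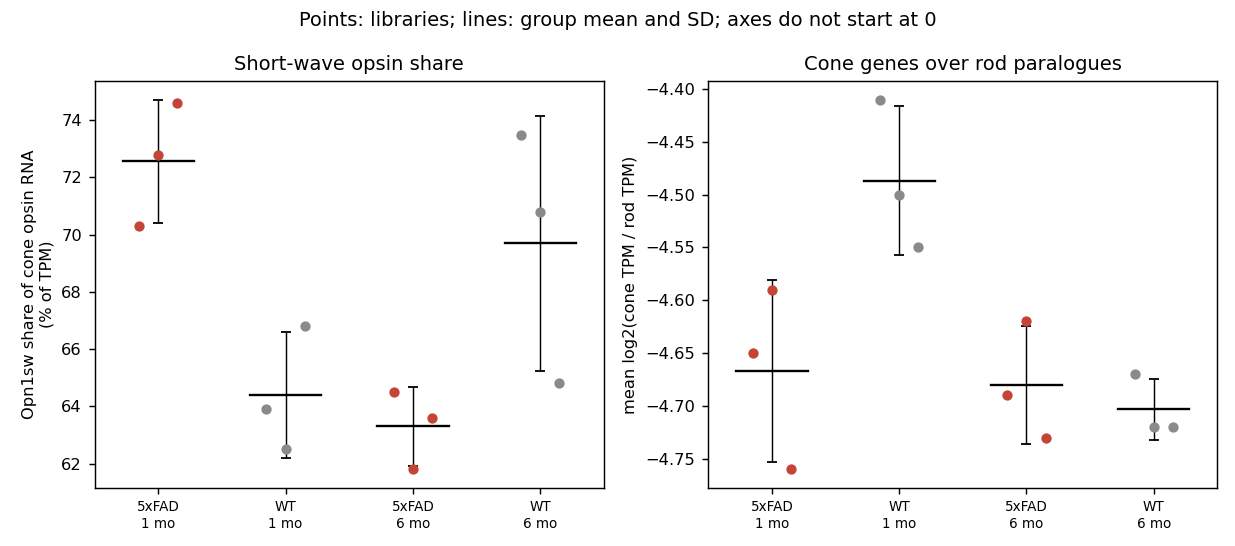
Left, share of Opn1sw in cone opsin RNA as a percentage of TPM; right, mean log2 ratio of cone genes to their rod paralogues in TPM, for the 3 libraries of each group (red points, 5xFAD; grey points, WT) with mean and SD. The share is above 70% in all 5xFAD libraries at 1 month and below 67% in the WT libraries of that age.

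Rod paralogues gave a scale for the cone genes within the same library. Averaged over 9 cone and rod pairs, the log2 ratio of cone to rod TPM was -4.67 ± 0.09 in 5xFAD retina at 1 month and -4.49 ± 0.07 in WT retina (SD, n = 3 each), without overlap. At 6 months it was -4.68 ± 0.05 in 5xFAD retina and -4.70 ± 0.03 in WT retina, with overlap. The exact two-sided permutation p was 0.1 at 1 month and 0.7 at 6 months, adjusted to 0.207 and 0.792. A single pair could move further than the average. Arr3 over Sag, the rod arrestin gene, was -3.64 ± 0.21 in 5xFAD retina and -2.95 ± 0.27 in WT retina at 1 month, and -3.21 ± 0.10 and -3.59 ± 0.15 at 6 months in 5xFAD and WT retina.

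The rod genes themselves were called in both directions at 1 month. Pde6a, a rod phosphodiesterase subunit, and Slc24a1, the rod exchanger, were higher in 5xFAD at that age (log2 fold change 0.54 ± 0.08 and 0.38 ± 0.08), and Gngt1 and Pde6g, the rod transducin gamma and phosphodiesterase inhibitory subunits, were lower (-0.59 ± 0.11 and -0.29 ± 0.09), so that 4 of 10 were called in edgeR, beside 19.6% of all tested genes. At 6 months 2 of 10 were higher and none lower, with Gnb1, the rod transducin beta gene, at 0.29 ± 0.07 (edgeR adjusted p = 0.0223), beside 2.48% of all genes higher. The median over the 10 rod genes was 0.04 at 1 month and 0.14 at 6 months.

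Of 19 other genes of the cascade and the photoreceptor response, most of them used by both photoreceptor types, 10 were higher and 3 lower in 5xFAD at 1 month, beside 10.7% higher and 8.91% lower of all tested genes, with a median log2 fold change of 0.37. Over all tested genes the median at that age was -0.49 in the shortest length decile and 0.43 in the longest. The part of transcript length in the calls of this list, of the rod genes and of the cone identity genes below was not tested. Gucy2f and Gucy2e, guanylate cyclases that restore cyclic GMP, had 1.24 ± 0.13 and 0.65 ± 0.08 (edgeR adjusted p = 4.91e-06 and 1.1e-05), and Rbp3, the retinoid carrier between photoreceptors and pigment epithelium, had 0.65 ± 0.07 (adjusted p = 3.54e-06). At 6 months 2 were higher and 2 lower, beside 6.38% of all genes called, and Gucy2f had -0.58 ± 0.13 (edgeR adjusted p = 0.0122). Among them is Cngb3, the other subunit of the cone channel, which averaged 25.6 ± 6.52 CPM in 5xFAD retina and 25 ± 5.21 CPM in WT retina at 1 month and was not called at either age.

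Of 15 genes tied to cone identity, 3 were higher and none lower at 1 month, a share near the 19.6% of all tested genes called (10.7% higher). They were Rora, a nuclear receptor (0.93 ± 0.12, edgeR adjusted p = 1.44e-05), Thrb, the thyroid hormone receptor needed for middle-wave opsin in the mouse (0.61 ± 0.13, adjusted p = 0.0019), and Ccdc136 (0.29 ± 0.10, adjusted p = 0.0442). The median of the list was -0.01. Thrb thus averaged 96.1 ± 5.09 CPM in 5xFAD retina and 63.0 ± 8.78 CPM in WT retina at 1 month. Opn1mw was lower in 5xFAD at that age in the fit without a length correction. With the length and GC dependence taken out it was not called (-0.14 ± 0.11, edgeR adjusted p = 0.483). A link between Thrb and Opn1mw was not tested. At 6 months, beside 6.38% of all genes called, Rorb was higher in 5xFAD (0.49 ± 0.11, edgeR adjusted p = 0.00684) and Rora lower (-0.45 ± 0.12, adjusted p = 0.0231).

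At 1 month the transcripts called were all of Arr3. Of 35 transcripts of the 10 genes that reached 1 CPM on average, 3 were called between genotypes at 1 month, all of Arr3 and all lower in 5xFAD, where 2.52% of all tested transcripts were called and 0.922% were lower. Arr3-201, the main protein-coding transcript of 1359 nt, had 63.6, 41.4 and 41.3 CPM in 5xFAD libraries, against 128, 158 and 123 CPM in WT libraries. Arr3-202, annotated as a transcript that keeps an intron, had 148, 136 and 124 CPM in 5xFAD libraries, against 309, 257 and 203 CPM in WT libraries. Both were below the WT libraries throughout, with log2 fold changes of -1.48 ± 0.23 and -0.92 ± 0.14 (edgeR adjusted p = 0.0132 and 0.0123). The third, Arr3-205, also of the retained-intron class, had -1.44 ± 0.24 (adjusted p = 0.0156). The number called was 1 without WT replicate 2 or 5xFAD replicate 2 of that age, and 0 without 5xFAD replicate 3. With the replicate number as a block it was also 1.

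**Figure D5:**
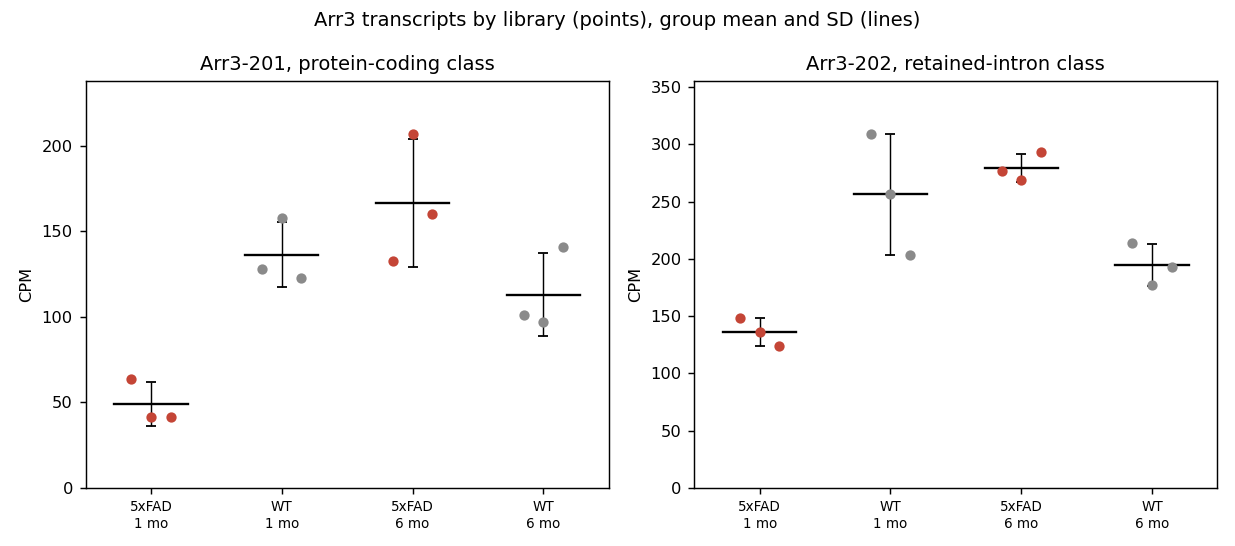
Levels in CPM (vertical axes, from 0) of the Arr3 protein-coding transcript Arr3-201 (left) and the retained-intron transcript Arr3-202 (right) in the 3 libraries of each group (red points, 5xFAD; grey points, WT), with mean and SD. At 1 month all 5xFAD libraries lie below all WT libraries for both transcripts.

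At 6 months none of the 35 transcripts was called between genotypes, where 0.488% of all tested transcripts were. Arr3-201 had 133, 207 and 160 CPM in 5xFAD libraries at that age, against 101, 97.1 and 141 CPM in WT libraries, which overlapped. Arr3-202 had 277, 269 and 293 CPM in 5xFAD libraries, against 214, 177 and 193 CPM in WT libraries, which did not. The interaction of genotype and age was called for 4 transcripts, Opn1mw-201 (1.06 ± 0.24), Arr3-201 (2.04 ± 0.32), Arr3-202 (1.44 ± 0.20) and Arr3-205 (1.87 ± 0.33), all positive, where 6.05% of all transcripts were called in edgeR and 2.08% were positive. The comparison of 6 months with 1 month called 4 in 5xFAD, where 3.12% of all transcripts were called (1.16% higher and 1.96% lower), and none in WT, where 0.916% were. They were Opn1sw-201, lower at 6 months (-0.35 ± 0.07), and the same Arr3 transcripts, higher. Opn1sw-201 and Arr3-205 had the weakest of these calls (edgeR adjusted p = 0.0339 and 0.0477). The number called for age in 5xFAD was 2 to 3 when 1 library was left out. With the replicate number as a block it was 2, both higher.

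Most Arr3 counts were assigned to transcripts of the retained-intron class. That share was 75%, 81% and 78.4% in 5xFAD libraries at 1 month, against 73.2%, 65.0% and 65.3% in WT libraries. In the older retinas it was 69.6%, 59.9% and 68.4% in 5xFAD libraries, against 72.0%, 69.2% and 61.8% in WT libraries. The 5xFAD libraries were above the WT libraries at 1 month and overlapped them at 6 months. The means differed by 10.3 percentage points at 1 month (exact two-sided permutation p = 0.1, adjusted p = 0.207) and by -1.69 points at 6 months (p = 0.6, adjusted p = 0.735). The shares of Gnat2, Gnb3 and Pde6h overlapped between genotypes at both ages. The split of short reads among transcripts of 1 gene is an estimate: Slc24a2-203 and Slc24a2-204, of 10531 and 10499 nt, each stood at 0 CPM in at least 1 library in which the other was above 50 CPM.

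Likeness over the 12 libraries was measured as the root mean square difference of log2 CPM, each gene centred on its own mean, over 9961 genes. Among the closest to Arr3 were Rps27a (0.146) and Amy1 (0.148), and the closest to Opn1mw were Ap1s1 (0.119), Tmem208 (0.121) and Psmd14 (0.132). Opn1sw was nearest to Svop (0.053), Ganab (0.069) and Ogdh (0.074). Among the members, Gnat2 lay at 0.127 from Opn1mw, close to its nearest genes, while Opn1sw lay at 0.311. Arr3 lay at 0.291 from Gngt2, its nearest member, and at 0.843 from Slc24a2. These values describe the profiles and carry no test.

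Across the libraries, totals ran from 10.9 to 19.6 M expected counts and ribosomal RNA from 0.028% to 1.108% of counts. Markers of rods, ON bipolar cells, Muller glia and ganglion cells were present in every group, as whole retina would hold, and all 13 cone markers were measured. Markers of tissue next to the retina moved with genotype at 1 month. Of 11 tested markers of pigment epithelium and choroid, 6 were lower in 5xFAD and none higher, beside 8.91% lower and 10.7% higher of all tested genes. The 14 listed summed to 33.3 to 49.5 CPM in 5xFAD libraries and 88.5 to 169 CPM in WT libraries, with Mlana at 0 in 5xFAD. Rpe65, the isomerase of the visual cycle, averaged 1.25 ± 0.392 CPM in 5xFAD retina and 8.42 ± 3.71 CPM in WT retina, and the thyroxine carrier Ttr 8.79 ± 3.01 and 43.0 ± 14.6 CPM in 5xFAD and WT retina. The 9 lens markers summed to 5.99 to 70.0 CPM in 5xFAD libraries at 1 month and 0.504 to 1.26 CPM in WT libraries, with Lim2 at 0 in 5xFAD and Lim2, Mip, Cryba1 and Crygs at 0 in WT. At 6 months the pigment epithelium and choroid markers summed to 61.7 to 98.6 CPM in 5xFAD libraries and 66.1 to 125 CPM in WT libraries. The part of these tissues in the cone results was not tested.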

How the data were processed

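Polyadenylated RNA of whole retina was sequenced from an unstranded TruSeq preparation, per the labels' protocols. The values the authors deposited are expected counts, 1 table for genes and 1 for transcripts, and were not normalized. RSEM 1.3.3, STAR 2.7.1a, Trim Galore 0.6.6 and DESeq2 1.32.0 are listed in the submitters' processing notes, with GRCm38.p6 as genome build; the annotation is not given in the sources used here. Symbols, coordinates and lengths came from GENCODE M21 (55227 of 55487 genes matched).

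Expected counts were rounded and fitted in R 4.3.3 with edgeR 4.0.16 (quasi-likelihood test, TMM scaling, filterByExpr, robust) on all 12 libraries, leaving 8 residual degrees of freedom; 16233 genes and 45326 transcripts were tested, and a call is a Benjamini-Hochberg adjusted p below 0.05 over all of them. An error after a log2 fold change is its size divided by the square root of F. Shares and ratios of single values were compared with exact two-sided permutation tests in SciPy 1.17.1. The scripts were tested on simulated data. Intervals of counting error are smaller than the spread between replicates, which had chi-square values per degree of freedom of 4.13 or more, so no library repeats another. Equal replicate numbers did not pair samples.

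All members are named. Of other lists, up to 4 genes with the smallest p per genotype comparison, rod genes in a pair, the 3 genes nearest in profile to Opn1sw, Opn1mw and Arr3, member transcripts of at least 1 CPM, and Rpe65 and Ttr could be named. Cngb3, Xist and Ddx3y were chosen after their values were seen. Some results that this rule made eligible are not reported here. The members and lists were chosen with earlier results of these data known. Alternatives were DESeq2 1.42.0 size factors and Wald test, library size alone, other filters, a replicate block, the compared groups alone, edgeR offsets that take out the dependence of a library on length and GC content (natural splines, 4 degrees of freedom), 3 libraries richest in ribosomal RNA left out, pseudogenes left out, and each replicate left out. Counts per length for shares of retained introns were added after seeing the data.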

Additional observations from a re-analysis of the deposited data

Results flagged for a closer look

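For 6 cone genes the genotype difference at 6 months differed from that at 1 month in the test of the interaction (edgeR quasi-likelihood test, adjusted p below 0.05). The difference of the log2 fold changes, 6 months minus 1 month, was 1.47 for Arr3, 1.03 for Opn1mw, 0.89 for Gngt2, 0.74 for Gnat2 and 0.44 for Pde6h. It was -1.38 for Slc24a2. Of all tested genes 25% were called for the interaction, 11.7% positive and 13.3% negative. The call of Gngt2 was lost with the length and GC dependence taken out (0.35 ± 0.21, edgeR adjusted p = 0.273). That of Pde6h was made under 11 of 21 alternative settings.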

How the results depend on the processing

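No member gene that was called reversed its sign under any alternative run. The shares and ratios carried no call, and the cone over rod ratio at 6 months and for age in 5xFAD took both signs. With the dependence on length and GC content taken out, 3 members were called at 1 month (2 higher, 1 lower) in place of 5. Over all 16233 tested genes that setting called 751 higher and 1115 lower at 1 month. Without the 3 libraries richest in ribosomal RNA (5xFAD at 6 months, replicates 1 and 2, and WT at 1 month, replicate 2), 3 were called at 1 month, 0 at 6 months in place of 3, and 2 for age in 5xFAD in place of 6. Leaving out 1 library at a time gave 3 to 5 members at 1 month, 1 to 5 at 6 months, 0 to 4 for age in WT, 3 to 6 for age in 5xFAD and 5 to 6 for the interaction. For transcripts it gave 0 to 3, 0 to 0, 0 to 0, 2 to 3 and 3 to 5. The difference in Opn1sw share ranged over 7.16 to 9.38 points at 1 month, -8.87 to -4.49 at 6 months, 3.38 to 7.77 for age in WT and -10.4 to -8.27 for age in 5xFAD. The cone over rod log2 ratio ranged over -0.22 to -0.13, 0 to 0.05, -0.25 to -0.18 and -0.06 to 0.03. Without the Slc24a2 pair it was -0.29 at 1 month, 0.09 at 6 months and -0.32 for age in WT, and from counts not divided by length it was -0.05 at 6 months and -0.16 for age in WT. The replicate block, whose numbers correlated at -0.0852 to 0.0623, gave 1 transcript at 1 month and 2 for age in 5xFAD. Under this block Gnb3 was not called at 1 month (edgeR adjusted p = 0.055). The cause was not tested.

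Arr3 at 1 month was called in edgeR or DESeq2 in all 22 alternatives, with a log2 fold change from -1.06 to -0.74, and Slc24a2 in all 22, from 0.42 to 1.10. Opn1mw at 1 month was called in 16 and at 6 months in 20. The number of all genes called at 1 month was 3178, and 1866 once the dependence on length and GC content was taken out. At 6 months it was 1035, and 276 to 1687 when 1 library was left out, 501 in the compared groups alone and 321 without the libraries rich in ribosomal RNA. Without the latter it was 1947 for age in 5xFAD (3772) and 2354 for the interaction (4054). For age in WT it was 1705, and 780 without WT at 6 months replicate 2. Depth limits Cnga3, at about 10 to 17 CPM.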
